A study of Mus musculus with 12 samples.

Results

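The genes of the cardiac natriuretic peptide system were followed in polyA RNA from hearts of male C57Bl/6J mice, 12 weeks old. The 6 genes, chosen by name, are Nppa and Nppb, which encode the atrial and brain natriuretic peptides, their receptor genes Npr1, Npr2 and Npr3, and Corin, whose protease product cleaves pro-atrial natriuretic peptide. They are 6 of 16246 genes listed in the deposited tables, and all 6 are present in every table and entered every test. These genes and the gene lists used below were chosen with earlier results of these data known. Their counts beside the shares of all genes are therefore descriptive only. The 12 samples fall into 4 groups of 3. Mice ate a control diet, which contained all essential amino acids, or a BCAA-free diet, from which the branched-chain amino acids (BCAA, that is leucine, valine and isoleucine) had been left out. Feeding began 4 days before either a sham operation or transverse aortic constriction (TAC), which narrows the aorta and raises the pressure against which the left ventricle ejects, and each diet was kept until the hearts were taken 2 weeks later. The groups are named by diet and operation, as in control TAC or BCAA-free sham. No label says which chambers of the heart were included or whether a sample was 1 animal, so the p-values reflect only sample-to-sample spread, part of which may be technical.

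Atrial and brain natriuretic peptides are hormones secreted by heart muscle cells. Adult atria make atrial natriuretic peptide at high levels, and ventricular muscle makes more of both peptides when it is stretched, which is why Nppa and Nppb serve as markers of cardiac load. The peptides are made as longer precursors, and corin on the muscle cell surface cuts the precursor of atrial natriuretic peptide, while furin is known to process that of brain natriuretic peptide. The receptor encoded by Npr1 binds both peptides, the one encoded by Npr2 prefers C-type natriuretic peptide, and both are guanylyl cyclases that make cyclic GMP, a messenger that promotes sodium excretion and vascular relaxation. The product of Npr3 lacks the cyclase domain and removes the peptides from the circulation.

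Nppa (ENSMUSG00000041616) lies on chromosome 4 from 148000722 to 148002079 and Nppb (ENSMUSG00000029019) on the same chromosome from 147985788 to 147987205, both on the plus strand of GRCm38 and 13516 bases apart. Npr2 (ENSMUSG00000028469) is also on chromosome 4, from 43631935 to 43651244. Npr1 (ENSMUSG00000027931) is on chromosome 3 from 90450591 to 90465866, Npr3 (ENSMUSG00000022206) on chromosome 15 from 11839896 to 11907287, and Corin (ENSMUSG00000005220) on chromosome 5 from 72300025 to 72504473. In GENCODE M21 exons of 5 of the 6 genes, all but Nppb, overlap exons of an annotated transcript on the opposite strand. Whether reads were counted by strand is not given in the sources used here, so reads of such a pair cannot be told apart. The partner of Nppa, Gm13054, had normalized read counts of 27.1 to 53.7 in control sham and 63.9 to 284.5 in control TAC libraries, far below those of Nppa itself.

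The sequences upstream of the RefSeq transcript starts of the 2 peptide genes and of Corin are shown because the results below turn mainly on these 3 genes. Each line gives 250 bases that end just before the start of the RefSeq transcript (GRCm38.p6), 5′ to 3′ on the gene's own strand. Capitals mark matches, on either strand, to 7 motifs. These are GATA for the GATA factors, CATTCC as the core bound by TEAD factors, the TATA box letters TATAAA, and AAGTG as a core bound by NKX2-5. The others are the T-box core TCACACC, the AP-1 site TGANTCA and the CArG box of serum response factor. No marked matches overlap each other. The RefSeq start equals the gene start given above for Nppa but not for Nppb or Corin. For Nppb the bases from 147985788 to 147985899 lie within the gene as placed above, and all its marked matches are there. The Corin window stops at 72504541, short of the gene as placed above, which on its minus strand starts at 72504473.
Nppa, chr4:148000472-148000721, plus strand: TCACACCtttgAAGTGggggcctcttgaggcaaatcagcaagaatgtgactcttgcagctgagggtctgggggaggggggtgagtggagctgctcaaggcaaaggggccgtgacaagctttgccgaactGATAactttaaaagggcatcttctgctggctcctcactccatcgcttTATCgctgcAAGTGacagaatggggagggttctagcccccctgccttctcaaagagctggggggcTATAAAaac
Nppb, chr4:147985650-147985899, plus strand: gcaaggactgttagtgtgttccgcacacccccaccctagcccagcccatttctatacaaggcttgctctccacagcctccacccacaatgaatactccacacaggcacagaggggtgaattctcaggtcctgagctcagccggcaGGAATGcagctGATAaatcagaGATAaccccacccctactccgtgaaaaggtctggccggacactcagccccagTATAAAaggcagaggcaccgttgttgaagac
Corin, chr5:72504541-72504790, minus strand: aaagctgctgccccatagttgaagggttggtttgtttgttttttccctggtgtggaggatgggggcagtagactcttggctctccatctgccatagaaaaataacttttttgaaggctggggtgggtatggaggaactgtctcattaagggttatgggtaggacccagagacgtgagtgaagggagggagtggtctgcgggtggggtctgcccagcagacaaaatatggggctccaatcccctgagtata
The windows searched run on for 50 bases after the start, which are not shown. Counted from the RefSeq start, Nppa has GATA at -121 to -118 and, on the reverse strand, at -74 to -71, AAGTG at -239 to -235 and -65 to -61, TCACACC at -250 to -244 and TATAAA at -9 to -4. In Nppb, GATA stands at -94 to -91 and -83 to -80, CATTCC on the reverse strand at -105 to -100 and TATAAA at -31 to -26. None of the 7 motifs was found in the windows of Corin, Npr1 or Npr3, and that of Npr2 has 1 GATA on the reverse strand, at 13 to 16 after the start. Of 32851 windows of the same length, 57.9% hold GATA, 46.4% AAGTG, 14.7% CATTCC, 13.6% TATAAA, 7.81% TGANTCA, 3.98% TCACACC and 1.63% a CArG box. These matches describe the letters only, and no binding was measured.

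Levels were set on a common scale as CPM over the 12 libraries, from the whole reads that the deposited values hold. CPM is a gene's reads per 1000000 reads of its library, with the library size multiplied by a scaling factor (TMM, edgeR). It is therefore not the plain share of reads. Depth was 13848953 to 52059546 reads per library, and a member had between 364 reads (Npr3) and 80012 reads (Nppa) in a library. For Nppa and Nppb counting error is small beside the spread between replicates. For the receptor genes it can be of like size, as for Npr3 in BCAA-free sham libraries (26.6 CPM, SD 1.01, from 374 to 1319 reads). Per exon length (RPKM), the order in 11 of 12 libraries was Nppa, Nppb, Corin, Npr2, Npr1 and Npr3. The exception was control sham replicate 2, in which Nppb exceeded Nppa. In control sham hearts the RPKM was 297 ± 166 (SD, n = 3) for Nppa, 276 ± 139 for Nppb and 34.9 ± 4.41 for Corin. The receptors were lower, with 13.5 ± 1.46 for Npr2, 5.29 ± 0.497 for Npr1 and 2.23 ± 0.513 for Npr3.

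**Figure D1:**
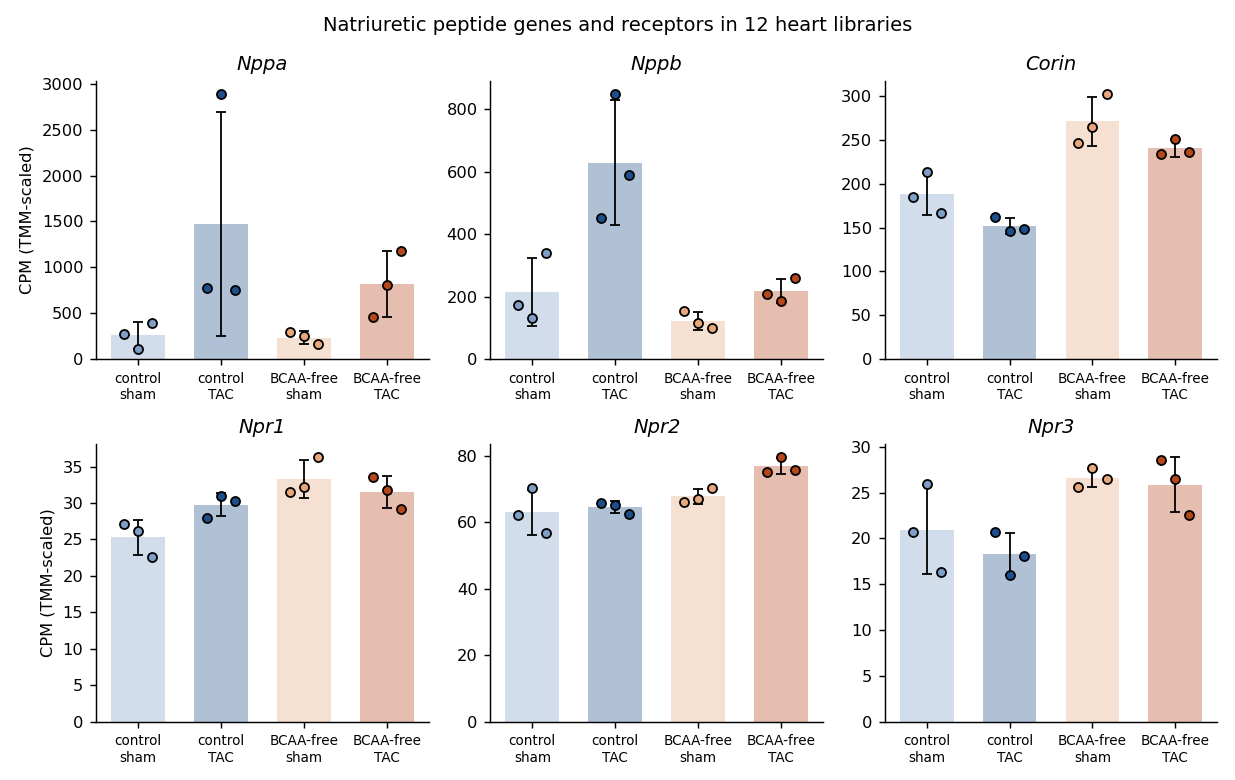
CPM of the 6 genes in each of 12 heart libraries (points), with the group mean (bars) and SD (error bars), n = 3 per group. Nppa is highest in control TAC replicate 2, Nppb is higher in all 3 control TAC libraries than in any other, and Corin is higher in all 6 BCAA-free libraries than in any of the 6 control diet libraries.

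The first question was how TAC altered the system on the control diet. Nppb rose after TAC on this diet and was the only member to pass the test (limma on log2 of the normalized read count plus 1, with Benjamini-Hochberg adjusted p under 0.05 over all genes of the table). That is 1 of 6 members, where 4.04% of all 15397 genes tested passed. Its normalized read counts were 5192, 3910 and 10394 in sham and 13466, 25351 and 17636 in TAC libraries. All 3 TAC values lay above all 3 sham values, and the log2 fold change was 1.61 ± 0.36 (SE; adjusted p = 0.0478). The call was narrow: it was lost when any 1 of 4 libraries was left out (control sham 1 or 2, control TAC 2 or 3), with an adjusted p of 0.110 to 0.121, and in edgeR's quasi-likelihood test on the recovered reads (adjusted p = 0.0599).

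Nppa had the larger difference and the wider spread. Its normalized read counts were 8256, 3081 and 11951 in control sham and 22999, 86226 and 22651 in control TAC hearts. The groups did not overlap, but TAC replicate 2 stood far above the other two TAC libraries and sham replicate 2 below the other two sham libraries. The log2 fold change was 2.40 ± 0.67, with a 95% confidence interval of 0.80 to 4.00 and a limma adjusted p of 0.0793, which missed the threshold. In the authors' deposited table Nppa has an adjusted p of 0.0267. The 4 remaining members did not pass, although Corin was lower in all 3 TAC libraries and Npr1 higher. Groups did not overlap for 4 of 6 members, against 35.2% of all genes tested.

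The next comparison, of TAC with sham when no BCAA was eaten, asked how such hearts responded. No member passed limma, where 6.23% of 15670 genes did. At an unadjusted p under 0.05 there were 3, Nppa, Nppb and Npr2, beside 3841 of all 15670 genes. The same 3 were the members whose groups did not overlap (29.5% of all genes). Nppa had normalized read counts of 10397, 8706 and 5599 in sham and 16211, 28291 and 41234 in TAC hearts. Its TAC values spread over a wider range than its sham values and lay above all of them, and the log2 fold change was 1.74 ± 0.45 (adjusted p = 0.103). Nppb had 5476, 4009 and 3509 in sham and 7379, 6493 and 9056 in TAC hearts. Here too the groups were apart, by a log2 fold change of 0.83 ± 0.19 (adjusted p = 0.0552). DESeq2 on the recovered reads called both peptide genes, with adjusted p of 0.00200 for Nppa and 0.0131 for Nppb, while edgeR called no member. In the authors' deposited table the adjusted p is 0.00198 for Nppa and 0.0127 for Nppb.

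The diets were then compared among TAC hearts. Nppb fell to 0.354 of its control diet level on the BCAA-free diet, while Nppa did not pass. The normalized read counts of Nppb were 16480, 30812 and 21480 in control TAC and 7646, 6741 and 9388 in BCAA-free TAC hearts. Every BCAA-free value was below every control value, with a log2 fold change of -1.50 ± 0.23 (95% confidence interval -2.03 to -0.97; limma adjusted p = 0.00375). This call held in every alternative and with any 1 library left out. Nppa had 28146, 104800 and 27588 in control TAC and 16798, 29373 and 42746 in BCAA-free TAC hearts. These groups overlapped: 2 of the 3 BCAA-free values exceeded 2 of the 3 control values. The log2 fold change was -0.65 ± 0.65 (adjusted p = 0.480), and its interval of -2.27 to 0.98 includes a fall as large as that of Nppb. The estimate depended on single libraries: it was -0.01 without control TAC replicate 2 and reached -0.98 without control TAC replicate 3. In all, 4 of 6 members passed, 1 lower and 3 higher, in a comparison in which 34.2% of all 15872 genes passed (17.7% lower and 16.5% higher). Groups did not overlap for the same 4 members, as for 50.8% of all genes.

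Among sham hearts neither peptide gene passed. Nppb had normalized read counts of 5018, 3787 and 9952 on the control diet and 4497, 3292 and 2883 on the BCAA-free diet. The high control value is that of replicate 3, and the groups overlapped (log2 fold change -0.72 ± 0.38, limma adjusted p = 0.415). Nppa had 7978, 2985 and 11443 against 8539, 7147 and 4600, so that all BCAA-free values lay inside the control range. The difference on the log2 scale was 0.01 ± 0.59, adjusted p = 0.993, and its interval ran from -1.51 to 1.54. Its sign was negative in DESeq2 and edgeR (-0.14 in each), so no direction can be given.

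The ratio of Nppa to Nppb reads within a library does not depend on how libraries are scaled. It was 1.59, 0.788 and 1.15 in control sham, 1.71, 3.40 and 1.28 in control TAC, 1.90, 2.17 and 1.60 in BCAA-free sham and 2.20, 4.36 and 4.55 in BCAA-free TAC hearts. The ratio was thus higher in all BCAA-free sham libraries than in the control sham libraries, by 0.73 on the log2 scale (exact two-sided permutation p = 0.1, the least that 3 against 3 can give). In BCAA-free TAC hearts it was above BCAA-free sham by 0.91 on the log2 scale, again without overlap (exact permutation p = 0.1). Between the 2 diets after TAC it overlapped (0.85, exact permutation p = 0.2), as it did between TAC and sham on the control diet (0.79, exact permutation p = 0.2). Over the 4 comparisons of this ratio no test could pass 0.05.

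**Figure D2:**
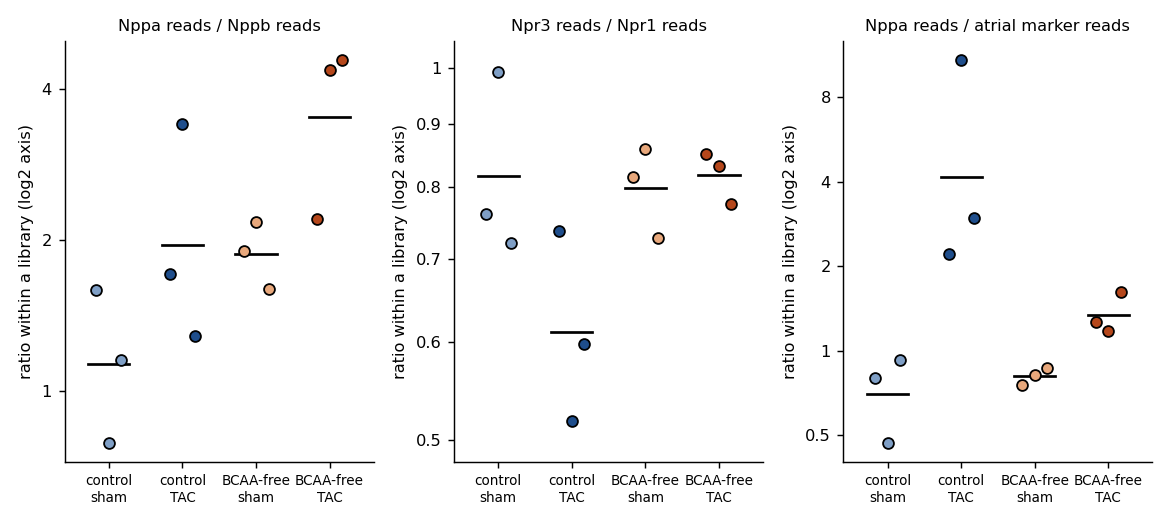
Ratios of read counts within each of 12 libraries on a log2 axis, with points for libraries and lines for geometric means. From left to right: Nppa to Nppb, Npr3 to Npr1, and Nppa to the summed reads of 7 atrial muscle marker genes, where control TAC libraries lie at 2.21 to 10.8 and BCAA-free TAC libraries at 1.17 to 1.62.

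Because Nppa is abundant in atria, markers of atrial muscle were read in the same libraries. All 7 listed markers (Sln, Myl4, Myl7, Bmp10, Dkk3, Stard10 and Nr2f1) were measured. Their summed level was 223 to 421 CPM in control sham, 254 to 349 in control TAC, 184 to 390 in BCAA-free sham and 363 to 725 in BCAA-free TAC libraries. Between the diets after TAC, 4 of the 7 passed limma as higher on the BCAA-free diet (Sln, Myl7, Stard10 and Nr2f1), where 16.5% of all genes did, with a median log2 fold change of 1.17 over the 7 against 0.00026 over all genes. The calls of Sln, Myl7 and Nr2f1 were lost when certain single libraries were left out (4, 3 and 4 of the 6 libraries), and that of Stard10 was not. Removal of GC and length trends ended the calls of Myl7 and Nr2f1, scaling to library totals also that of Nr2f1, and edgeR on 12 libraries that of Sln. With TAC on the BCAA-free diet none of the 7 passed against sham, and all 7 estimates were above 0. Ventricular markers were higher too between the diets after TAC. Of 4 (Myl2, Irx4, Hey2 and Myl3), 3 passed limma as higher, all but Hey2, with a median log2 fold change of 0.39 and all 4 estimates above 0. The calls of Myl2, Irx4 and Myl3 were lost when certain single libraries were left out (1, 3 and 4 of the 6 libraries).

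Within groups, Nppa was ordered like some atrial markers and unlike others. Sln, Myl4, Myl7 and Dkk3 had the library order of Nppa in 3 of the 4 groups, Stard10 in 2, Nr2f1 in 1 and Bmp10 in 0. By group, 5 of the 7 markers were ordered like Nppa in each sham group, 2 in control TAC and 3 in BCAA-free TAC hearts, where the other 4 peaked in replicate 2 and Nppa in replicate 3. Bmp10 varied most between replicates, at 4.76, 106 and 3.81 CPM in BCAA-free TAC libraries. Myl7, one of the markers ordered most often like Nppa, is given here beside Nppa as an example. In BCAA-free TAC hearts Nppa was at 461, 804 and 1178 CPM and Myl7, an atrial myosin light chain, at 111, 169 and 249. BCAA-free sham libraries gave 295, 247 and 159 for Nppa and 131, 97.6 and 54.3 for Myl7, and control sham libraries 277, 105 and 389 for Nppa and 102, 67.0 and 147 for Myl7. In these 3 groups both genes had the same library order. Control TAC replicate 2, with the highest Nppa of all (2886), had the lowest Myl7 of its group (53.2, against 91.3 and 70.0).

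**Figure D3:**
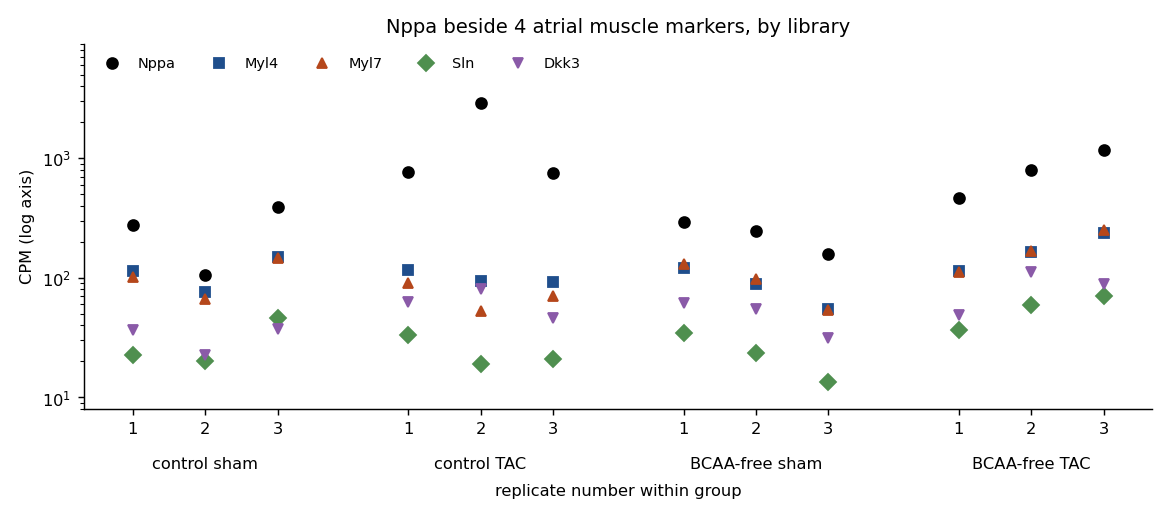
CPM (log axis) of Nppa and of 4 of the 7 atrial muscle markers in each of 12 libraries, by group and replicate. The 4 shown (Sln, Myl4, Myl7 and Dkk3) are those with the library order of Nppa in 3 of the 4 groups. Stard10, Nr2f1 and Bmp10, which had it less often, are not shown. In BCAA-free TAC hearts Nppa and Myl7 are both lowest in replicate 1 and highest in replicate 3, while control TAC replicate 2 has the highest Nppa and a low Myl7.

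Set against the summed atrial markers, a ratio added after the data had been seen, Nppa was at 0.798, 0.470 and 0.924 in control sham and 2.21, 10.8 and 2.97 in control TAC libraries. BCAA-free sham libraries gave 0.757, 0.816 and 0.865 and BCAA-free TAC libraries 1.27, 1.17 and 1.62. On this scale TAC libraries lay above sham libraries on both diets, by 2.56 (control) and 0.73 (BCAA-free) in log2 terms. BCAA-free TAC lay below control TAC without overlap, by -1.63 in log2 terms, while the sham groups overlapped. Between these TAC groups the marker sum itself differed, at 254 to 349 CPM in control and 363 to 725 in BCAA-free libraries. The Nppa levels of the 2 TAC groups overlapped. For each separated pair the exact permutation test, two-sided, gave p = 0.1, its least possible value. The part of atrial tissue in the Nppa values was not tested, and in RNA of heart tissue fewer cells of a type and less RNA per cell cannot be told apart.

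Corin, the protease that activates pro-atrial natriuretic peptide, was higher on the BCAA-free diet. After TAC its normalized read counts were 5911, 5311 and 5401 on the control diet and 8537, 9205 and 8589 on the BCAA-free diet. The groups were tight and well apart, with a log2 fold change of 0.66 ± 0.08 (1.58-fold, limma adjusted p = 0.00117). This call also held in every alternative and with any 1 library left out. Among sham hearts Corin had 5320, 6099 and 4894 on the control diet and 7144, 7669 and 8739 on the BCAA-free diet. These groups did not overlap either, and the log2 fold change was 0.53 ± 0.12. With a limma adjusted p of 0.0629 Corin missed the threshold, as did every member in this comparison (0.624% of 15217 genes passed). In edgeR on the recovered reads of these 6 libraries no member was called. With edgeR on all 12 libraries Corin (adjusted p = 0.0215) and Npr1 (0.0450) were called. In the authors' deposited table the adjusted p of Corin among sham hearts is 0.00500. It also passed in DESeq2 (adjusted p = 0.00481), after removal of GC and length trends (0.0278) and with control sham replicate 2 (0.0388) or 3 (0.0348) left out. At an unadjusted p under 0.05 there were 3 members among sham hearts, Corin, Npr1 and Npr3, beside 2525 of all 15217 genes. The same 3 were those whose groups did not overlap (23.0% of all genes).

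TAC itself had a smaller difference for Corin. On the control diet the values were 5505, 6296 and 5112 in sham and 4830, 4370 and 4434 in TAC hearts, all TAC values below all sham values (-0.31 ± 0.12, limma adjusted p = 0.126). On the BCAA-free diet the groups overlapped, with 8699, 9341 and 10637 in sham and 8239, 8866 and 8285 in TAC hearts (-0.17 ± 0.08, adjusted p = 0.222). A set of 5 contractile and calcium-release genes of heart muscle (Myh6, Tnnt2, Tnni3, Actc1 and Ryr2) were read beside Corin, since it is made by heart muscle. Their summed level was 45850 to 56160 CPM in control TAC and 71148 to 72211 in BCAA-free TAC libraries, with 3 of 5 higher by limma (Myh6, Tnnt2 and Tnni3; 16.5% of all genes were). Ryr2, the calcium-release channel gene, lay the other way without overlap (-0.38 ± 0.13, adjusted p = 0.0516), and Actc1 overlapped. The sum is mostly Myh6, whose call was lost without either of 2 libraries, and without it the sums were 19396 to 20462 and 23388 to 25983. In control sham it was 56948 to 66992 and in BCAA-free sham 63168 to 70953, with none of 5 passing. The part of muscle content in the Corin values was not tested.

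Of the receptor genes, Npr3 and Npr2 were higher on the BCAA-free diet after TAC and Npr1 did not pass. Npr3, the clearance receptor gene, had normalized read counts of 752, 583 and 660 in control TAC and 1041, 968 and 820 in BCAA-free TAC hearts. Every BCAA-free value was above every control value (log2 fold change 0.50 ± 0.12, limma adjusted p = 0.0134). The call was lost without BCAA-free TAC replicate 1 (adjusted p = 0.0577) or 2 (0.0547). Among sham hearts Npr3 had 595, 740 and 480 against 743, 799 and 764, a narrow separation (0.37 ± 0.15, adjusted p = 0.245).

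Npr3 is known in endocardium, the inner lining of the heart. Of 4 endocardial markers, Vwf and Cytl1 were also higher on the BCAA-free diet after TAC (16.5% of all genes were) and Nfatc1 and Plvap did not pass. The summed level of the 4 was 109 to 117 CPM in control TAC and 153 to 168 in BCAA-free TAC libraries. The larger part of this sum is Vwf, at 63.3 to 68.1 and 93.6 to 113 CPM. In sham hearts it was 103 to 145 on the control diet and 145 to 157 on the BCAA-free diet. General endothelial markers lay the other way between the diets after TAC. Of 4 such genes, 2 fell by limma (Pecam1 and Cdh5, where 17.7% of all genes fell) and 0 rose. The call of Pecam1 was lost without either of 2 libraries. The part of these cells in the Npr3 difference was not tested.

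Npr2, whose product is the receptor for C-type natriuretic peptide, had the smallest called difference. In TAC hearts its values were 2403, 2364 and 2284 on the control diet and 2739, 2913 and 2754 on the BCAA-free diet. The groups were apart, by 0.25 ± 0.07 on the log2 scale (1.19-fold, limma adjusted p = 0.0227). This call depended on scaling and on single libraries. It was lost when libraries were scaled to their totals (0.12, adjusted p = 0.249), which moved the median of all genes by -0.13, and when GC and length trends were removed (0.18, adjusted p = 0.0691). Leaving out control TAC replicate 3 or any 1 of the BCAA-free TAC libraries also ended it (adjusted p = 0.0502 to 0.0891). The opposite-strand gene Gm12473 had 239 to 367 in control TAC and 351 to 546 in BCAA-free TAC libraries (10.5% to 18.8% of the Npr2 value of the same library). Its mean was 290 in control TAC and 422 in BCAA-free TAC libraries, a difference equal to 29.4% of that of Npr2, and its part in the Npr2 difference was not tested. With TAC on the BCAA-free diet, too, the Npr2 groups were apart, at 2329, 2356 and 2476 in sham and 2643, 2806 and 2657 in TAC hearts (0.18 ± 0.07, adjusted p = 0.135). On the control diet it had 1849, 2071 and 1742 in sham and 1963, 1945 and 1875 in TAC hearts (0.03 ± 0.10, adjusted p = 0.850).

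Npr1, the gene of the main cyclase receptor, passed limma in no comparison. On the control diet it had 809, 771 and 695 in sham and 834, 927 and 907 in TAC hearts, which did not overlap (0.23 ± 0.10, limma adjusted p = 0.186). On the BCAA-free diet it had 1109, 1132 and 1277 in sham and 1180, 1120 and 1021 in TAC hearts, which did (-0.08 ± 0.09, adjusted p = 0.608). Among sham hearts BCAA-free values of 911, 930 and 1049 stood above control values of 781, 746 and 665 (0.40 ± 0.11, adjusted p = 0.113). Of the alternatives, only edgeR on all 12 libraries called Npr1 there (adjusted p = 0.0450). In TAC hearts the 2 diets overlapped, with 1020, 1126 and 1105 against 1222, 1162 and 1058 (0.08 ± 0.09, interval -0.11 to 0.27, adjusted p = 0.487).

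Npr3 was also set against Npr1 within each library, since one receptor removes the peptides and the other signals. The ratio of reads was 0.761, 0.992 and 0.721 in control sham, 0.738, 0.518 and 0.598 in control TAC, 0.815, 0.860 and 0.728 in BCAA-free sham and 0.852, 0.833 and 0.775 in BCAA-free TAC hearts. Among TAC hearts all BCAA-free libraries had a higher ratio than all control libraries, by 0.42 on the log2 scale (exact two-sided permutation p = 0.1, the least possible). The other 3 comparisons overlapped, with exact permutation p of 0.2 (control TAC against sham), 0.7 (BCAA-free TAC against sham) and 0.9 (diets in sham hearts).

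Whether the response to TAC differed between the diets was tested directly as an interaction. None of the 6 members passed, where 8.65% of 15195 genes did by limma. An unadjusted p under 0.05 was found for 1 member, Npr1, and for 4320 of the 15195 genes. DESeq2 and edgeR also called no member. The interaction of Npr1 was -0.31 ± 0.13 on the log2 scale (adjusted p = 0.141). For Nppb it was -0.78 ± 0.49 (interval -1.88 to 0.32, adjusted p = 0.323) and for Nppa -0.66 ± 0.92 (interval -2.74 to 1.42, adjusted p = 0.674). Without control TAC replicate 2 the Nppa estimate was -0.02, and without control sham replicate 2 it was -0.10. The difference of Nppb between the diets after TAC is therefore not shown to be a different response to TAC. For Npr2, Npr3 and Corin the estimates were 0.14 each, with adjusted p of 0.429 to 0.684, and the sign of all 3 turned when libraries were scaled to their totals, which moved the median of all genes from -0.03 to -0.20.

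**Figure D4:**
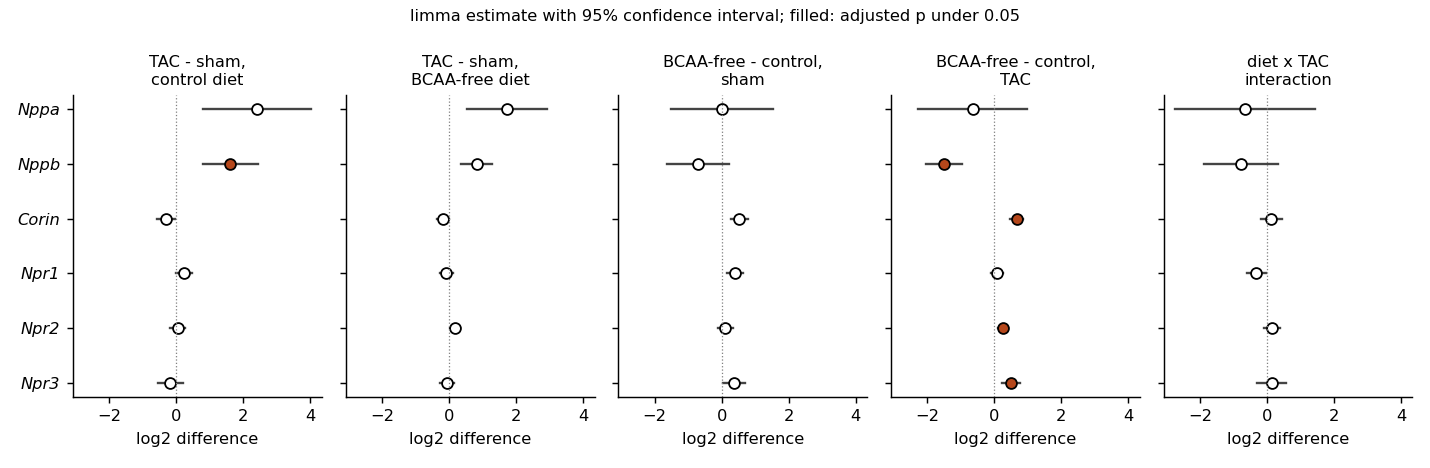
Log2 differences of the 6 genes (points) with 95% confidence intervals (lines) in the 4 comparisons and the interaction, from limma. Filled points passed at an adjusted p under 0.05: Nppb after TAC on the control diet, and Nppb, Corin, Npr2 and Npr3 between the diets after TAC.

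Genes that act before and after the receptors were read from lists drawn up with earlier results of these data known. Of 4 processing genes (Furin, Pcsk6, Pcsk5 and Pam), 1 rose after TAC on the control diet, where 4.04% of all genes passed. It was Pam, an enzyme that amidates peptides and is abundant in atrial granules (0.65 ± 0.14, limma adjusted p = 0.0458). The call was lost when any 1 of 5 of the 6 libraries was left out. No processing gene passed in the other comparisons. Of the 3 measured degradation genes, Mme fell after TAC on the BCAA-free diet (-0.51 ± 0.14, adjusted p = 0.0461), where 6.23% of all genes passed. Mme encodes neprilysin, the protease that degrades natriuretic peptides, and its call too was lost without any 1 of 5 libraries. Ide and Dpp4 passed nowhere. None of the 3 subunit genes of soluble guanylyl cyclase (Gucy1a1, Gucy1a2 and Gucy1b1) passed in any comparison. Nppc, which encodes C-type natriuretic peptide, and Ostn, another ligand gene, were not analysed here, nor was Klk1.

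Of the genes downstream of cyclic GMP, 5 of 13 fell and 1 rose by limma between the diets after TAC, with a median of -0.32, where 17.7% of all genes fell and 16.5% rose. Prkg1, the gene of cyclic GMP-dependent protein kinase I, averaged 509 ± 27.6 in control TAC and 254 ± 57.2 in BCAA-free TAC hearts (-1.03 ± 0.16, adjusted p = 0.00291). The phosphodiesterase genes Pde9a (-0.67 ± 0.19) and Pde5a (-0.44 ± 0.13), the kinase substrate gene Vasp (-0.43 ± 0.09) and Rgs5 (-0.32 ± 0.09) fell too. Rgs2, a regulator of G protein signalling that the kinase acts on, rose from 711 ± 167 to 1723 ± 324 (1.28 ± 0.18, adjusted p = 0.00240). With TAC on the control diet Prkg1 rose (0.80 ± 0.13, adjusted p = 0.0367), the only call among 12 (4.04% of all genes passed). On the BCAA-free diet Pde3a (-0.59 ± 0.08) and Rgs5 (-0.30 ± 0.08) fell and Vasp rose (0.29 ± 0.07) among 13 (6.23% of all genes passed). No gene of this list passed among sham hearts. There 4 of 12 had an unadjusted p under 0.05, as had 2525 of all 15217 genes. Over the 3 comparisons the calls of Prkg1, Vasp and Rgs2 between the diets after TAC, and that of Pde3a, were kept with any 1 library left out. The others were each lost without any 1 of 3 to 5 of the 6 libraries. When GC and length trends were removed, all 3 calls after TAC on the BCAA-free diet and those of Pde5a and Rgs5 between the diets were lost, and that of Rgs2 was lost in edgeR on 12 libraries. Rgs5 is also a pericyte marker, and Prkg1 and Pde5a are known in smooth muscle. The summed smooth muscle and pericyte markers were 958 to 1067 CPM in control TAC and 852 to 904 in BCAA-free TAC libraries, but most of this sum is Rgs5 itself. Without Rgs5 the sums overlapped (311 to 441 and 342 to 403), and the smooth muscle myosin gene Myh11 was called higher on the BCAA-free diet (0.41 ± 0.13, adjusted p = 0.0423). The part of these cells in the differences was not tested.

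Transcription factors known to act on the peptide genes moved in both directions. Between the diets after TAC 4 of 14 rose and 4 fell by limma, with a median of -0.02, beside 16.5% and 17.7% of all genes. The risers were Tbx5 (1.04 ± 0.19), Hand2 (0.80 ± 0.08), Gata6 (0.64 ± 0.10) and Nkx2-5 (0.40 ± 0.12), and the fallers were Tead1 (-0.80 ± 0.08), Rest (-0.53 ± 0.11), Tbx20 (-0.50 ± 0.13) and Mef2c (-0.32 ± 0.10). Tead1 encodes a factor that binds the CATTCC motif, and Rest a repressor of fetal heart genes that include Nppa. Tbx5 is also more abundant in atria, whose markers were higher in the same comparison, as were 3 of 4 ventricular markers. After TAC on the BCAA-free diet 3 of the 14 fell, Tbx20 (-0.38 ± 0.08), Mef2a (-0.36 ± 0.07) and Tead1 (-0.30 ± 0.07), where 6.23% of all genes passed. Each of these 3 calls was lost without any 1 of 3 to 5 libraries, as were those of Nkx2-5 and Mef2c between the diets (4 libraries each) and Tbx20 (2 libraries). The 3 calls after TAC, and those of Nkx2-5, Mef2c, Tbx20 and Rest between the diets, were also lost when GC and length trends were removed. None of the 14 passed after TAC on the control diet or between the diets among sham hearts, and 4 had an unadjusted p under 0.05 in each. Of all genes, 4343 of 15397 and 2525 of 15217 had such a p in these comparisons.

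The differences of Nppa and Nppb were set beside those of 6 genes around them. With TAC on the control diet none of the 6 passed, with log2 fold changes of -0.19 to 0.24. An unadjusted p under 0.05 was reached by 1 of them and by 4343 of all 15397 genes. On the BCAA-free diet 1 of the 6 rose, 2510039O18Rik (0.66 ± 0.09, limma adjusted p = 0.00410), where 6.23% of all genes passed. The other 5 lay between -0.11 and 0.20. Between the diets after TAC 3 of the 6 passed, where 34.2% of all genes did. Plod1, a lysyl hydroxylase gene (-0.34 ± 0.10), fell, while Miip (0.49 ± 0.10) and 2510039O18Rik (0.48 ± 0.09) rose, and Clcn6 (-0.12 ± 0.11), Agtrap (-0.09 ± 0.08) and Mfn2 (0.29 ± 0.10) did not pass. The call of Plod1 was lost without either of 2 libraries and that of Miip when GC and length trends were removed. Among sham hearts none of the 6 passed, and 3 had an unadjusted p under 0.05, as had 2525 of all 15217 genes.

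**Figure D5:**
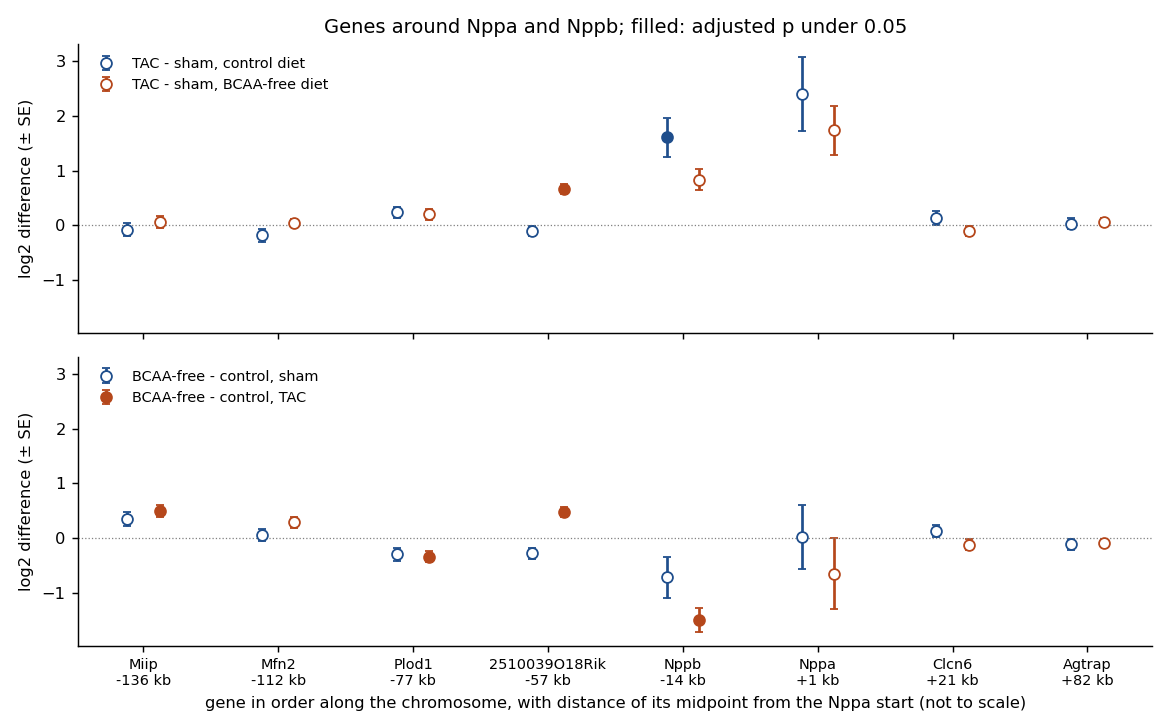
Log2 differences (± SE) of Nppa, Nppb and 6 neighbouring genes in chromosome order, after TAC on each diet (top) and between the diets in sham and TAC hearts (bottom), with filled points for an adjusted p under 0.05. After TAC on the control diet Nppb and Nppa stand at 1.61 and 2.40 while these neighbours lie between -0.19 and 0.24.

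The genes most like each peptide gene over the 12 libraries were found by the root mean square distance between log2 profiles centred on their means, among 10773 genes. Nearest to Nppb were Dbn1, an actin-binding protein gene (0.25), Adamtsl2 (0.25), Sparc (0.27) and Mfap5 (0.32), the latter 3 of the extracellular matrix, against a root mean square of 0.93 for the Nppb profile itself. Sparc, for example, was at 276 ± 47.8 CPM in control sham, 884 ± 430 in control TAC, 164 ± 11.8 in BCAA-free sham and 251 ± 36.4 in BCAA-free TAC hearts. Nppb itself was at 215 ± 109, 630 ± 201, 123 ± 28.9 and 218 ± 37.8 in these groups. Nearest to Nppa were the matrix genes Wisp2 (0.53), Comp (0.56) and Ltbp2 (0.61) and the stretch-responsive muscle gene Ankrd1 (0.63), against 1.26 for the Nppa profile itself. Nppb ranked 19 in likeness to Nppa, at 0.73, and Nppa ranked 674 in likeness to Nppb at that same distance. Summed fibroblast markers were highest in control TAC replicate 2 (1353 CPM, against 699 and 753 in the other two), the library with the highest Nppa and Nppb. The larger part of this sum is the collagen gene Col1a1, at 757 CPM there and at 210 and 242 in control TAC replicates 1 and 3. Pdgfra differed little, at 63.8 CPM there against 61.7 and 61.0. Dcn (523 CPM) and Tcf21 (9.38) were also highest in control TAC replicate 2. The part of fibroblasts in these profiles was not tested. These likenesses describe 12 libraries of 4 groups and carry no test.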

How the data were processed

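PolyA RNA of 12 mouse heart samples was sequenced, 3 in each of 4 groups. The tools named per the submitters' processing notes are STAR 2.5.2b, Trimmomatic 0.36, DESeq2 and Subread 1.5.2, with the builds GRCm38 and mm10, and no roles are given. There are 4 deposited tables of 6 libraries, each for 1 pair of groups. The deposited signal is a normalized read count, a gene's reads divided by 1 factor per library within its table. All values (100%) came out within 0.01 of a whole number of reads. The log2 fold changes and p-values in the same tables are the authors' own, per the file headers.

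Each pair was fitted within its table with limma 3.58.1 (R 4.3.3; intensity trend, robust variances) on log2(value + 1), for genes whose mean value was 10 or more, so fold changes of low genes are understated. The interaction used all 12 libraries, taken from both TAC tables. Benjamini-Hochberg adjustment ran over all genes tested, with a threshold of 0.05. Ratios were compared by exact two-sided permutation tests (SciPy 1.17.1). Levels came from recovered reads scaled by TMM (edgeR 4.0.16), and RPKM from GENCODE M21 union exon lengths; 99.8% of IDs matched. Promoter sequences are RefSeq's on GRCm38.p6, and all 6 genes matched by symbol. Replicates of a group differed by more than sampling noise (mean chi-square per gene 4.74 to 68.0).

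The members and gene lists were chosen with earlier results of these data known. Named genes were all members, the called genes of each list (at most 4 of smallest p per comparison) or else the 2 of smallest p, 6 neighbours (a further one on the list is not reported here), and the 4 nearest profiles; further called genes of the lists are named because their counts were small. Gm13054, Gm12473, the ratio to atrial markers, the marker sums without 1 gene and the order of the atrial markers were added after the data had been seen. The text on lists leaves out genes that did not pass. Alternatives were library totals, TMM, no filter, a pseudocount of 10, a minimum mean of 100, a block for the replicate number, removal of GC and length trends (splines with 5 degrees of freedom), DESeq2 1.42.0, edgeR and voom on recovered reads, edgeR on all 12 libraries (added later), and each library left out. The fits were tested on simulated data.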

Additional observations from a re-analysis of the deposited data

Results flagged for a closer look

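The response to TAC differed between the diets, by limma's test of the interaction itself, for 6 of 42 genes in the lists around the peptide system, where 8.65% of all 15195 genes passed. None of the 6 peptide, receptor and protease genes passed. The interaction was negative for Prkg1, the cyclic GMP-dependent kinase gene (-0.98 on the log2 scale, adjusted p = 0.0282), for the phosphodiesterase gene Pde5a (-0.81, adjusted p = 0.0379) and for Rgs5 (-0.69, adjusted p = 0.0199). Among the transcription factors it was negative for Tbx20 (-0.85, adjusted p = 0.0265) and Tead1 (-0.69, adjusted p = 0.0261). For 2510039O18Rik, a neighbour of Nppb, it was positive (0.76, adjusted p = 0.00794). With single libraries left out, the call was lost in 8 of 12 fits for Pde5a, 5 for Tbx20, 5 for Tead1, 4 for Prkg1, 3 for Rgs5 and 0 for 2510039O18Rik. The calls of Prkg1, Pde5a, Tbx20 and Tead1 were also lost when GC and length trends were removed, with or without the replicate block. For Prkg1 the effect of TAC was 0.80 on the control diet, and for 2510039O18Rik it was -0.10 with the control and 0.66 with the BCAA-free diet.

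Of 38 further genes in the cell marker lists, 7 passed the same limma test of the interaction, where 8.65% of all 15195 genes passed. It was positive for the atrial gene Stard10 (1.67, adjusted p = 0.0175), for the ventricular genes Myl2 (0.86, adjusted p = 0.0394) and Irx4 (0.60, adjusted p = 0.0253) and for the cardiac troponin gene Tnni3 (0.99, adjusted p = 0.0204). It was negative for the fibroblast genes Pdgfra (-0.71, adjusted p = 0.0109) and Dcn (-0.52, adjusted p = 0.0458) and for the leukocyte gene Ptprc (-1.09, adjusted p = 0.0289). Each was lost under some alternative: with trends removed for Dcn, Irx4, Myl2, Ptprc and Tnni3, with the block and trends removed for Pdgfra and Stard10, and with some single libraries left out for all but Pdgfra.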

How the results depend on the processing

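The replicate numbers did not pair the samples (correlation of deviations between same-numbered samples -0.18 to 0.08), so the replicate block is given here only. With the block, 0 members were called after TAC on the control diet (adjusted p of Nppb = 0.0917), and with the block and GC and length trends removed 0 in that comparison and 1 (Corin) between the diets in sham hearts; no other count of members moved by over 1.5 times. Between the diets after TAC the block also ended the calls of Sln, Myl7, Pde5a, Nkx2-5, Myh11 and Col1a1, and with trends removed as well those of Stard10 and 2510039O18Rik.

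After TAC on the control diet the count of members called, 1 in the fit as designed, was 0 with a pseudocount of 10, edgeR or limma-voom, 2 with DESeq2 or edgeR on 12 libraries (Nppa and Nppb), and 0 to 1 with a library left out. After TAC on the BCAA-free diet it was 1 with a mean of at least 100, 2 with DESeq2 and 0 to 1 with a library left out (1 without BCAA-free sham replicate 1). Between the diets in sham hearts it was 1 with GC and length trends removed, 1 with DESeq2, 2 with edgeR on 12 libraries (Corin and Npr1) and 0 to 1 with a library left out; after TAC it was 2 to 4 (2 without BCAA-free TAC replicate 1 or 2). The cause of these shifts was not tested. Genes called in the whole table moved far more: after TAC on the control diet 622 became 0 to 1091 with a library left out.

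No estimate called by limma changed sign. For the diet in sham hearts Nppa was -0.14 in DESeq2, edgeR and edgeR on 12 libraries, and -0.55 to 0.42 with a library left out. For the diet after TAC Npr1 was -0.048 with library totals and -0.0011 with trends removed. Npr2 after TAC on the control diet was -0.023 with trends removed and -0.022 to 0.10 with a library left out. Npr3 after TAC on the BCAA-free diet was 0.18 with trends removed and -0.12 to 0.049 with a library left out; its interaction was -0.033 with library totals and -0.016 to 0.29 with a library left out. With library totals the interactions of Corin and Npr2 were -0.036 and -0.027. The log2 ratio of Npr3 to Npr1 was, with a library left out, -0.032 to 0.088 for BCAA-free TAC against sham and -0.12 to 0.11 for the diet in sham hearts, and that of Nppa to atrial markers -0.081 to 0.41 for the diet in sham hearts.

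With library totals 2510039O18Rik and Miip were 0.050 and 0.065 after TAC on the control diet, and Agtrap and Miip -0.14 and -0.029 in the interaction. With trends removed, with or without the block, Ide was -0.013 and 0.098 for the diet in sham and TAC hearts and 0.11 in the interaction, Agtrap -0.031 after TAC on the control diet, Gucy1b1 0.027 and Miip -0.14 after TAC on the BCAA-free diet, and Miip -0.10 in the interaction. With a library left out Agtrap was -0.0017 to 0.082 and Ide -0.047 to 0.13 after TAC on the control diet, and Miip -0.0013 to 0.13 after TAC on the BCAA-free diet. For the diet in sham hearts Ide was -0.073 to 0.12, Mfn2 -0.013 to 0.11 and Mme -0.49 to 0.013, and in the interaction Agtrap was -0.022 to 0.079 and Plod1 -0.13 to 0.051.

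Over 3 against 3 the exact permutation tests cannot go below 0.1.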
